A study of Mus musculus with 13 samples.

Results

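RING1B, the catalytic subunit of Polycomb repressive complex 1, was compared with histone H3 lysine 27 acetylation at promoters and at regions away from gene starts in mouse olfactory basal cell lines. The regions described are the 77396 H3K27ac peaks of the replicate 1 list, among 123071 on chromosomes 1 to 19 and X, that shared at least 1 base with a replicate 2 peak. The other 45675 had no replicate 2 peak. By distance to the nearest annotated transcription start, 15770 regions lay within 2000 bases (promoter regions), 16790 between 2000 and 10000 bases (intermediate regions) and 44836 farther away (distal regions). They were sorted into quintiles, 5 equal sets, by their H3K27ac fold enrichment, and RING1B was counted where a region held a peak that overlapped between both RING1B lists. There were 6265 such RING1B peaks, and 2300 of the acetylated regions (2.97%) held at least 1 of them.

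The cells were wild-type lines grown as adherent cultures from c-KIT-selected basal cells of adult C57BL6 olfactory epithelium, in medium with EGF, FGF2, heparin, BMP4 and the TGF-beta receptor inhibitor SB431542. RING1B replicate 1 came from line 1 at passage 12 and RING1B replicate 2 from line 2 at passage 19. H3K27ac replicate 1 came from line 2 at passage 13 and H3K27ac replicate 2 from line 3 at passage 14. CBX8 was profiled in line 2 at passage 19 and line 3 at passage 14, and H3K27me3 in line 1 at passage 12 and line 2 at passage 11. By the labels RING1B replicate 1 shares line and passage with H3K27me3 replicate 1, RING1B replicate 2 with CBX8 replicate 1, and H3K27ac replicate 2 with CBX8 replicate 2. No RING1B library shares line and passage with an H3K27ac library, and line 2 alone had both, at passages 19 and 13. Replicates of an antibody came from different lines and passages, which cannot be told apart. With 2 libraries per antibody no test between conditions was made, and intervals given with shares are exact Clopper-Pearson 95% intervals that cover counting error only.

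The lists differed in length. RING1B replicate 1 held 7574 peaks on these chromosomes and replicate 2 held 32879, so the share of regions with RING1B is given for peaks of both lists and for each list alone. CBX8 replicate 1 (line 2) held 9902 peaks and replicate 2 (line 3) 77130. CBX8 in both lists is therefore limited by the shorter list, and CBX8 in line 3 alone can reflect list length. Read depth is unknown. The acetylated promoters fitted the labelled cell type in part: 10 of 14 basal and progenitor markers were acetylated, Krt5, Krt14, Trp63 and Sox2 among them, while Kit, Pax6 and Lgr5 were among those that were not. Of the other markers examined, acetylated promoters were found for 2 of 10 genes of olfactory neurons (Omp and Adcy3), 2 of 8 of sustentacular and gland cells (Aqp5 and Krt18), 3 of 9 of glia and mesenchyme (Col1a1, Twist1 and Thy1) and 1 of 5 of immune and endothelial cells (Aif1).

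Polycomb repressive complex 1 places ubiquitin on histone H2A through RING1A or RING1B. Canonical forms carry a CBX protein such as CBX8, which binds H3K27me3, the mark written by Polycomb repressive complex 2. Variant forms carry RYBP or YAF2 in place of a CBX protein and reach DNA by other subunits, for example KDM2B, which binds unmethylated CpG, or MGA and E2F6. Acetylation and trimethylation cannot occupy the same lysine 27, and H3K27ac is widely used to mark active promoters and, away from starts, active enhancers. No other enhancer mark was examined, so the regions beyond 2000 bases are named here by their distance.

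The sequences of 8 promoters show the DNA at which these comparisons were made. All are the 250 bases before a start in the RefSeq promoter table of build GRCm38.p6, 5′ to 3′ on the gene's strand, and capitals mark every CG dinucleotide. Spop encodes a substrate adaptor of a cullin ubiquitin ligase (chr11:95413833-95414082, plus strand). Hdac2 encodes a histone deacetylase (chr10:36974294-36974543, plus strand). Ube2q1 encodes a ubiquitin-conjugating enzyme (chr3:89773359-89773608, plus strand), and Zcwpw1 a histone reader used in meiosis (chr5:137787552-137787801, plus strand). These 4 had strong RING1B in both lists beside H3K27ac, and neither CBX8 nor H3K27me3 in both lists.
Spop: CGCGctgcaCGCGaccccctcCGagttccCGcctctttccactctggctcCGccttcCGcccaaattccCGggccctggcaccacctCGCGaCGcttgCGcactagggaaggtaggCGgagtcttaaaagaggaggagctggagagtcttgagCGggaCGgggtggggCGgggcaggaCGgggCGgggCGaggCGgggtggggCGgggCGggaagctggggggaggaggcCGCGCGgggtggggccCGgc
Hdac2: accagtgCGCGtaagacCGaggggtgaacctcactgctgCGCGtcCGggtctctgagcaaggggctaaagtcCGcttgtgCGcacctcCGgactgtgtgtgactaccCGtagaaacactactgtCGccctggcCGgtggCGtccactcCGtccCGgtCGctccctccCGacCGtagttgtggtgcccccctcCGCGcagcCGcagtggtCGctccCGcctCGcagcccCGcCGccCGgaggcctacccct
Ube2q1: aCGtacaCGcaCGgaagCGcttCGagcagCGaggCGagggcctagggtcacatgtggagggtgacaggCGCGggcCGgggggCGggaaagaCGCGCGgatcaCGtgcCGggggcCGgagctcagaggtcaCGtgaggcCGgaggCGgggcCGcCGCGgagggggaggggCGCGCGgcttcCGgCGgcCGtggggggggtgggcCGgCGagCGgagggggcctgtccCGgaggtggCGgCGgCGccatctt
Zcwpw1: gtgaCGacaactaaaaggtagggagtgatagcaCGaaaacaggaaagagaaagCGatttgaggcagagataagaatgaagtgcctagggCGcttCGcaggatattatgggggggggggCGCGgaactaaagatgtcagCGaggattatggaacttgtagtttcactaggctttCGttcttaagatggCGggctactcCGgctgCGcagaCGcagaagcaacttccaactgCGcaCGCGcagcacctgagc

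Foxl2, a forkhead transcription factor gene (chr9:98955357-98955606, plus strand), and Flt1, a VEGF receptor gene (chr5:147726012-147726261, minus strand), had RING1B together with CBX8, H3K27me3 and H3K27ac. H3K27ac was 5.32 and 3.68 at Foxl2 and 2.87 and 2.74 at Flt1, against promoter region medians of 7.95 and 8.26.
Foxl2: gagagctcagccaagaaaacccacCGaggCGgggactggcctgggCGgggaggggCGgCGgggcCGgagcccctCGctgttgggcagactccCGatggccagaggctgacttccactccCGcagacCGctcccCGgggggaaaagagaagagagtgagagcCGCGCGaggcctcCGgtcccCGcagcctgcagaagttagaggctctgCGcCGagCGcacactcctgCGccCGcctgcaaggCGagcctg
Flt1: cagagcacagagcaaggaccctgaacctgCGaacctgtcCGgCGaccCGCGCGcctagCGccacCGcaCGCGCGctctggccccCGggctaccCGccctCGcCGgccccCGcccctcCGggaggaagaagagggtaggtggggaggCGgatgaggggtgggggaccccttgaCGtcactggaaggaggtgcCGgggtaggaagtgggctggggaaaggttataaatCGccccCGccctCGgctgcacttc

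Sox2, a transcription factor of neural and basal progenitors (chr3:34649745-34649994, plus strand), had strong H3K27ac with RING1B a little below the promoter median, and Ei24, an endoplasmic reticulum gene (chr9:36797335-36797584, minus strand), had the strongest H3K27ac of the promoters named without a RING1B peak in either list.
Sox2: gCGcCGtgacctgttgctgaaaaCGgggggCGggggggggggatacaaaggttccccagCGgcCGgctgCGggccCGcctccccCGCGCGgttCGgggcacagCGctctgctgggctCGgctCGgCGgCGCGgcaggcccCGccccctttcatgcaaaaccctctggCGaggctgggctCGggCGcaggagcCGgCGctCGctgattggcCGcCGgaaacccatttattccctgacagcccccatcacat
Ei24: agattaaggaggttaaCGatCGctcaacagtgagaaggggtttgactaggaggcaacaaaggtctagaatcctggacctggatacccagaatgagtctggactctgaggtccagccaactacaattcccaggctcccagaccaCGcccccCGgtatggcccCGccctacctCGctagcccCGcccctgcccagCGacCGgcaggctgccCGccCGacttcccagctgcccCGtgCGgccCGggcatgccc

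In the printed bases CG occurred 27 times for Spop, 27 for Hdac2, 36 for Ube2q1, 16 for Zcwpw1, 22 for Foxl2, 23 for Flt1, 27 for Sox2 and 14 for Ei24. The 8 promoters were picked after their values were seen, as examples of each combination. Distal regions are not shown as sequence.

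RING1B in acetylated chromatin lay mostly at promoters. Peaks of both lists lay in 1895 of 15770 promoter regions (12.0%, interval 11.5 to 12.5), in 129 of 16790 intermediate regions (0.768%, 0.642 to 0.912) and in 276 of 44836 distal regions (0.616%, 0.545 to 0.692). The promoter share was 19.5 times the distal share and 15.6 times the intermediate share. Each list alone kept that order: the replicate 1 list marked 13.5%, 0.989% and 0.859% of promoter, intermediate and distal regions, and the replicate 2 list 52.4%, 7.40% and 6.74%. The promoter-to-distal ratio was 15.7 with replicate 1 and 7.77 with replicate 2. Promoter regions were also wider, with a median of 1785 bases against 868 for distal regions, and counted per megabase of acetylated sequence the ratio was 9.79.

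The share fell over a short distance. Regions that covered an annotated start held RING1B in 14.4% of 11966 cases, and those with an edge within 1000 bases of one in 8.30% of 1748. From there to 2000 bases, just inside the promoter limit, the share was 1.26% (26 of 2056), and between 2000 and 3000 bases, just outside it, 1.03% (26 of 2526). The next limit separated equal shares, 0.595% of 9572 regions between 5000 and 10000 bases and 0.595% of 29222 between 10000 and 50000 bases. The plot by distance shows the same step in each RING1B list.

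**Figure D1:**
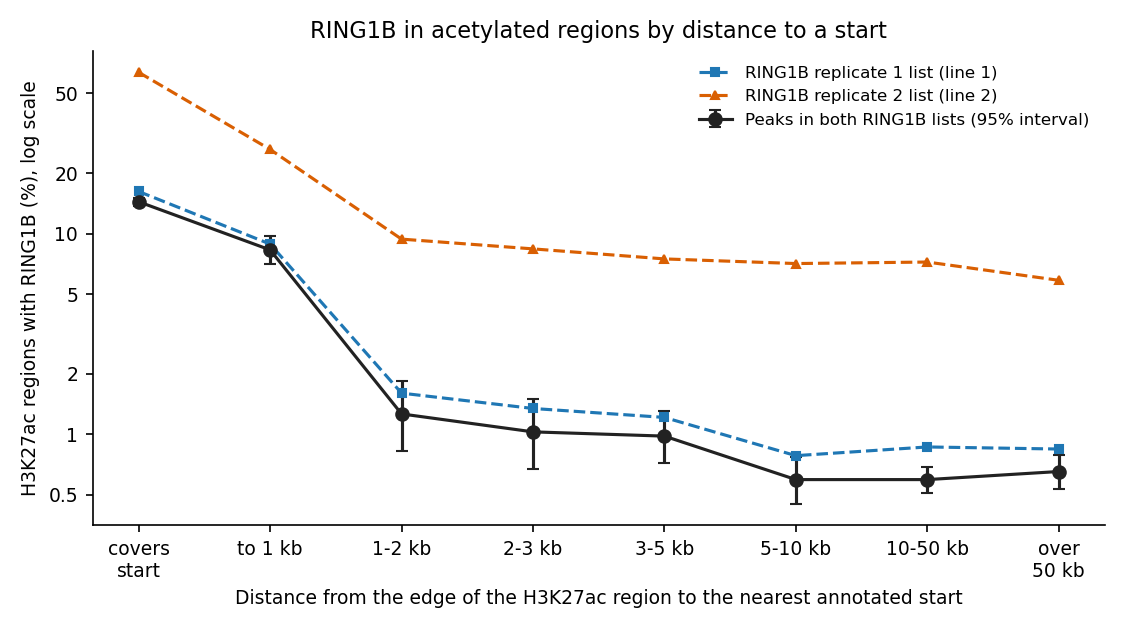
Share of H3K27ac regions with RING1B (percent, log axis) by distance from the region's edge to the nearest annotated start. Black points are peaks of both RING1B lists with exact 95% intervals, and colours are each list alone; the share falls from 14.4% over a start to 1.26% between 1000 and 2000 bases and lies between 0.595% and 1.03% beyond.

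Part of the remaining RING1B far from annotated starts lay near other starts. A RefSeq start fell within 2000 bases of 18.5% of the 276 distal regions with RING1B and of 3.69% of the 44560 without. For intermediate regions the corresponding shares were 14.7% and 3.09%. Distal regions near such a start held RING1B in 3.01% of 1695 cases, and the other 43141 in 0.522%.

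The share with RING1B was higher in the strongest than in the weakest H3K27ac quintile in every class. At promoters it was 4.61% in the weakest quintile, then 5.40%, 9.58%, 12.3% and 14.3% in the strongest. Intermediate regions had 0.624%, 0.380%, 0.456%, 0.952% and 2.71%, and distal regions 0.315%, 0.242%, 0.552%, 0.709% and 1.97%, both lowest in quintile 2. The strongest-to-weakest ratio was 3.11 at promoters, 4.34 at intermediate and 6.23 at distal regions, and both RING1B lists gave ratios above 1 in each class. H3K27ac fold ran from 1.40 to 2.65 in the weakest quintile and from 6.64 to 32.0 in the strongest.

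**Figure D2:**
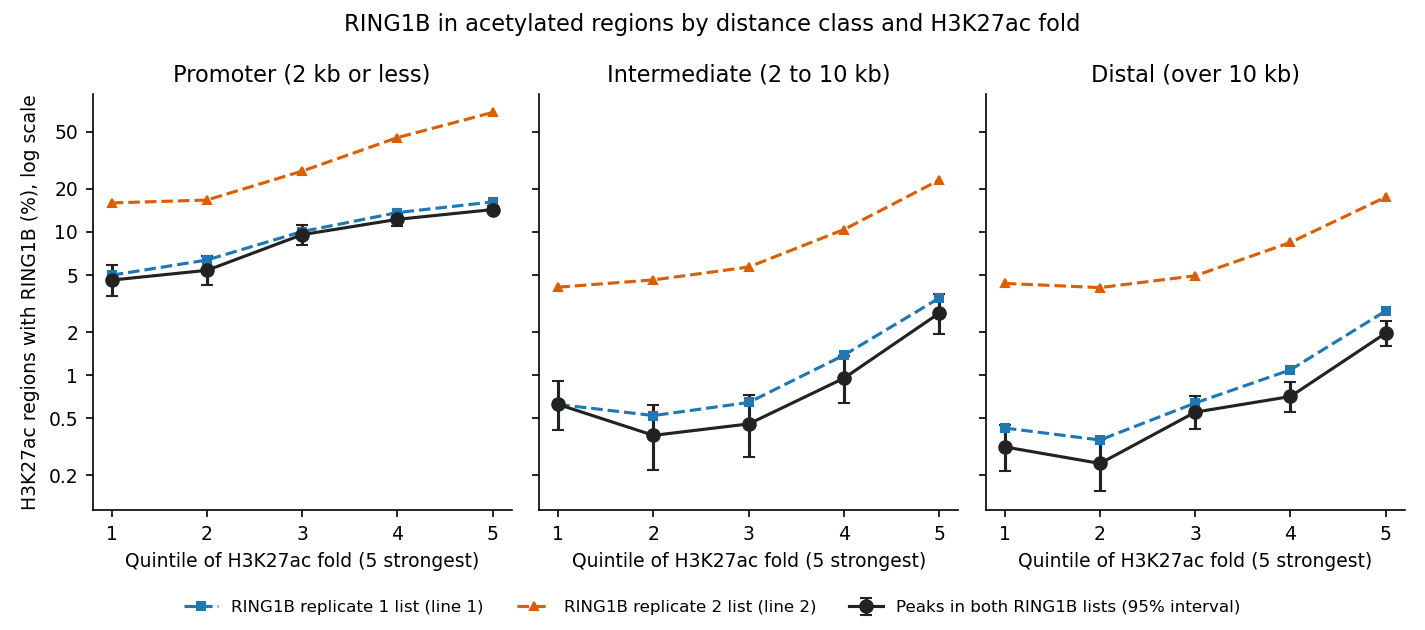
Share of H3K27ac regions with RING1B (percent, log axis) against the quintile of H3K27ac fold, in panels for promoter, intermediate and distal regions. Black points with exact 95% intervals are peaks of both lists and colours are each list alone; all 3 classes are higher in quintile 5 than in quintile 1, and promoters lie above the other classes in every quintile.

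That rise moved with the width of the regions. The median width of promoter regions grew 3.30 times from the weakest to the strongest quintile, of intermediate regions 4.60 times and of distal regions 4.33 times. Shared RING1B peaks per megabase went the other way at promoters, from 64.0 to 44.0, and at intermediate regions, from 10.6 to 7.92. At distal regions the density was 4.53 in the weakest and 6.04 in the strongest quintile. Among promoter regions that covered a start, the share was 6.98%, 9.62%, 15.8%, 15.1% and 14.7% from the weakest to the strongest quintile, with overlapping intervals in the upper 3. Off the start it was 3.78%, 3.27%, 5.08%, 4.43% and 7.41%.

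Promoter windows of 300 bases, added after values were seen, gave no rise by peaks of both lists. Windows of 1000 bases on either side of each region's midpoint kept a rise. Their strongest-to-weakest ratios were 1.83 at promoter, 3.87 at intermediate and 4.52 at distal regions. The RefSeq table held 21020 protein-coding promoter windows of 300 bases, from 250 before to 50 after a start, and 11625 of them lay under H3K27ac in both lists. RING1B of both lists was present in 7.48% of the acetylated windows (870) and in 5.02% of the other 9395. The windows end 50 bases after a start, and peaks beyond them are not counted. Summits of promoter RING1B peaks inside H3K27ac lay at a median of 116 bases after the annotated start, 62.9% of them downstream of it. By quintile of H3K27ac fold the share of acetylated windows with RING1B was 9.59%, 7.05%, 6.15%, 7.27% and 7.35%, from weakest to strongest. The replicate 2 list alone did rise, from 37.8% to 49.5%, whereas replicate 1 went from 10.5% to 8.22%.

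The same windows differed more by CpG content than by H3K27ac fold. From the fewest to the most CG dinucleotides, RING1B was present in 1.76%, 4.30%, 8.0%, 10.5% and 12.8% of acetylated windows, and both lists alone rose as well, from 2.15% to 13.8% and from 13.8% to 64.8%. Acetylated windows with RING1B held a median of 27 CG (interquartile range 21 to 35) and 66.0% GC, against 21 (13 to 29) and 61.3% without RING1B. In the quintile richest in CG, the share with RING1B was 25.3% at the weakest H3K27ac, then 12.7%, 11.0%, 10.9% and 10.8%. In the quintile poorest in CG it was 1.81%, 1.91%, 1.05%, 0.649% and 3.96%, the last from 9 of 227 windows. The richest and most weakly acetylated windows also had H3K27me3 in both lists in 22.3% of cases, against 0.654% in H3K27ac quintile 2.

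**Figure D3:**
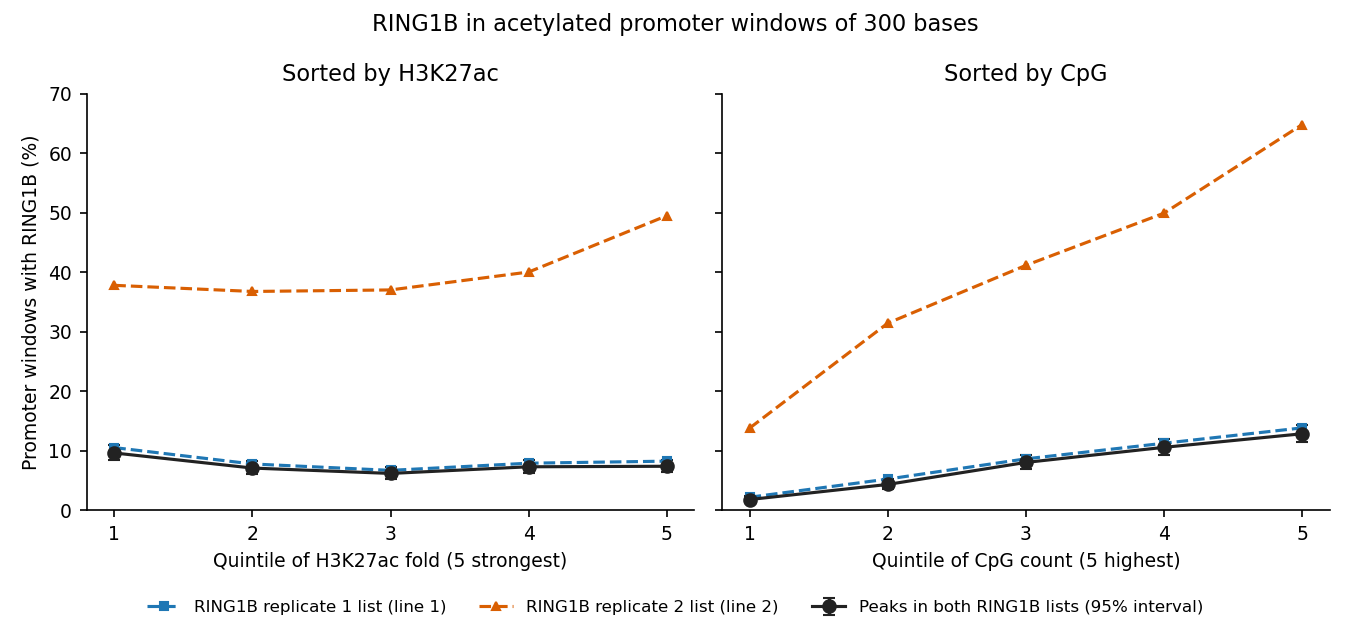
Share of acetylated 300-base promoter windows with RING1B (percent) by quintile of H3K27ac fold (left) and by quintile of CG count (right). Black points with exact 95% intervals are peaks of both lists and colours are each list alone; the black line goes from 9.59% to 7.35% across H3K27ac and from 1.76% to 12.8% across CG count.

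RING1B strength and H3K27ac strength were nearly unrelated. Median RING1B fold enrichment was 5.34 in replicate 1 and 7.12 in replicate 2 at promoter regions, 5.57 and 7.21 at intermediate regions, and 5.57 and 6.11 at distal regions. Taking the weaker of the 2 lists, the promoter median was 5.99 in the weakest H3K27ac quintile and 4.97 in the strongest. Spearman's rho between the weaker RING1B and the weaker H3K27ac fold was -0.12 over 1895 promoter regions, 0.12 over 129 intermediate regions and -0.05 over 276 distal regions, given as descriptions because regions of a library are not independent. The 2 RING1B lists correlated with rho 0.41 over the same promoter regions, and the 2 H3K27ac lists with 0.90.

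The strongest RING1B at acetylated promoters came in 2 kinds. The highest values belonged to the region named Foxl2os (chr9:98952102-98957990), which also covers the Foxl2 start, with RING1B 63.7 in replicate 1 and 62.0 in replicate 2, H3K27ac 5.32 and 3.68, and CBX8 70.04 and 93.8. Gjc1, a connexin gene, had RING1B 58.4 and 35.4 beside weak H3K27ac of 2.95 and 2.54, and CBX8 52.2 and 75.3. Hey1, a transcriptional repressor induced by Notch, had RING1B 25.8 and 30.7, H3K27ac 7.26 and 9.44, and CBX8 23.2 and 49.4. Tbx2, a T-box factor gene, and Slc30a3, a zinc transporter gene, likewise combined RING1B of 26.4 or more in the weaker list with H3K27ac under 3 and with CBX8 and H3K27me3 in both lists. All 5 regions thus carried RING1B, CBX8 and H3K27me3 in both lists.

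The second kind had CBX8 in no list or 1 list. Its lowest H3K27ac was 6.46, at Cc2d1a, and Hey1 of the first kind had 7.26 and 9.44. Beyond these 10 genes, Bmi1 combined CBX8 in both lists with RING1B 16.4 and 25.9 and H3K27ac 14.1 and 14.8. Spop (chr11:95413672-95415099) had RING1B 35.5 and 50.2 with H3K27ac 13.1 and 12.2, and Hdac2 had RING1B 31.0 and 34.5 with H3K27ac 16.9 and 20.7. Neither had a CBX8 or H3K27me3 peak in any list. Micu2, a regulator of mitochondrial calcium uptake, had RING1B 33.6 and 31.0 with H3K27ac 9.13 and 12.0, no CBX8, and H3K27me3 in line 1 alone. Cc2d1a had RING1B 27.2 and 31.8 with H3K27ac 6.46 and 10.1 and none of the other marks. The region named Ppp1r35 was wide, and its RING1B peak, 28.2 and 60.6, lay over the Zcwpw1 start; it had CBX8 of 4.25 in line 2 alone and H3K27me3 of 3.17 in line 1 alone.

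The most strongly acetylated promoters with RING1B had RING1B near the median. Commd3, next to Bmi1, had H3K27ac 27.2 and 28.5 and RING1B 4.05 and 6.33. Ppm1a, a protein phosphatase gene, had H3K27ac 26.1 and 26.2 and RING1B 7.78 and 6.71. Hivep2, Zc3h6, Dnajb14, Wac and Arid1b, which encodes a subunit of the SWI/SNF remodelling complex, had H3K27ac of at least 24.7 in both lists and RING1B from 3.61 to 6.52. Ispd, an enzyme of dystroglycan glycosylation, reached RING1B 7.32 and 10.6. None of these 8 promoters had a CBX8 or H3K27me3 peak in any list. Equally strong H3K27ac occurred without RING1B in either list at Ei24 (30.3 and 34.2), Rnf169 (29.2 and 31.8), Sugct (25.1 and 24.2), Med13 of the Mediator complex (23.8 and 25.9), the ATPase gene Vcp (23.4 and 28.1) and Zfand3 (23.0 and 24.0).

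**Figure D4:**
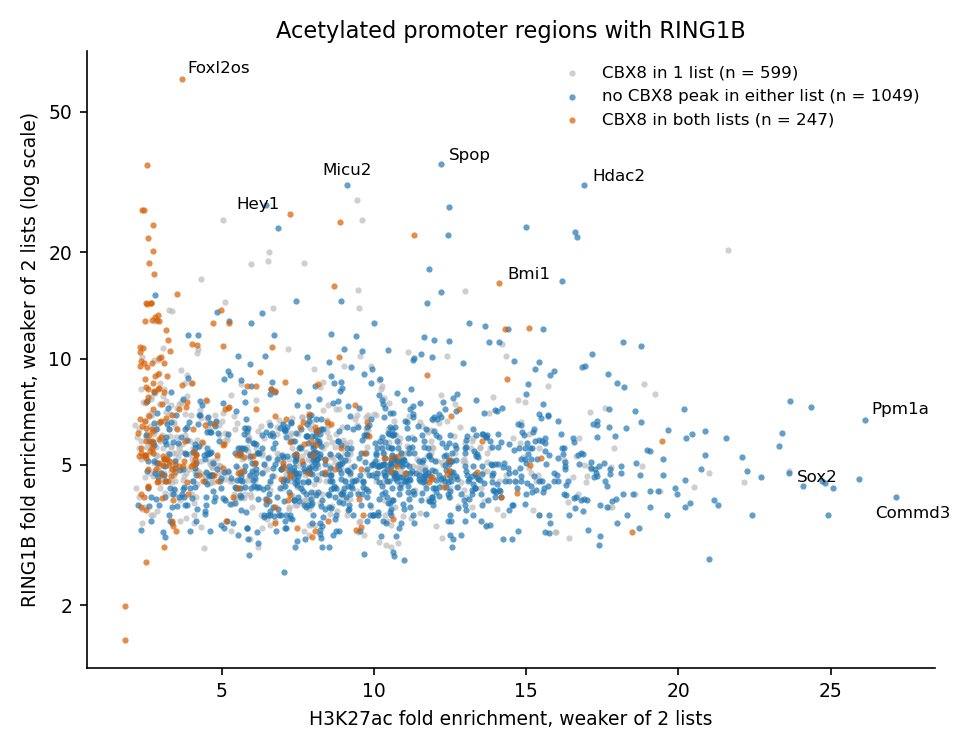
RING1B fold (log axis) against H3K27ac fold at the 1895 promoter regions with RING1B, each the weaker of 2 lists; colour gives CBX8. The 247 regions with CBX8 in both lists have a median replicate 1 H3K27ac fold of 4.75, and the 1049 without any CBX8 peak one of 10.7; the latter reach 27.2 and include Spop and Hdac2 at RING1B above 30.

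CBX8 and H3K27me3 divided the RING1B regions along the acetylation axis. Of the 61 promoter regions with RING1B in the weakest H3K27ac quintile, 52.5% held CBX8 and 86.9% H3K27me3 in both lists. Through the next quintiles CBX8 fell to 44.4%, 30.1%, 18.5% and 6.55%, and H3K27me3 to 80.6%, 64.7%, 35.7% and 6.55% of 1329 regions. At distal regions CBX8 went from 67.7% of 31 to 11.8% of 93, and H3K27me3 from 77.4% to 5.38%. Promoter regions without RING1B had CBX8 in 2.46% of the weakest and 1.95% of the strongest quintile, and H3K27me3 in 7.93% and 1.05%. The fall was also present in each list alone: CBX8 at promoters went from 57.4% to 9.86% in line 2 and from 82.0% to 32.5% in line 3.

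**Figure D5:**
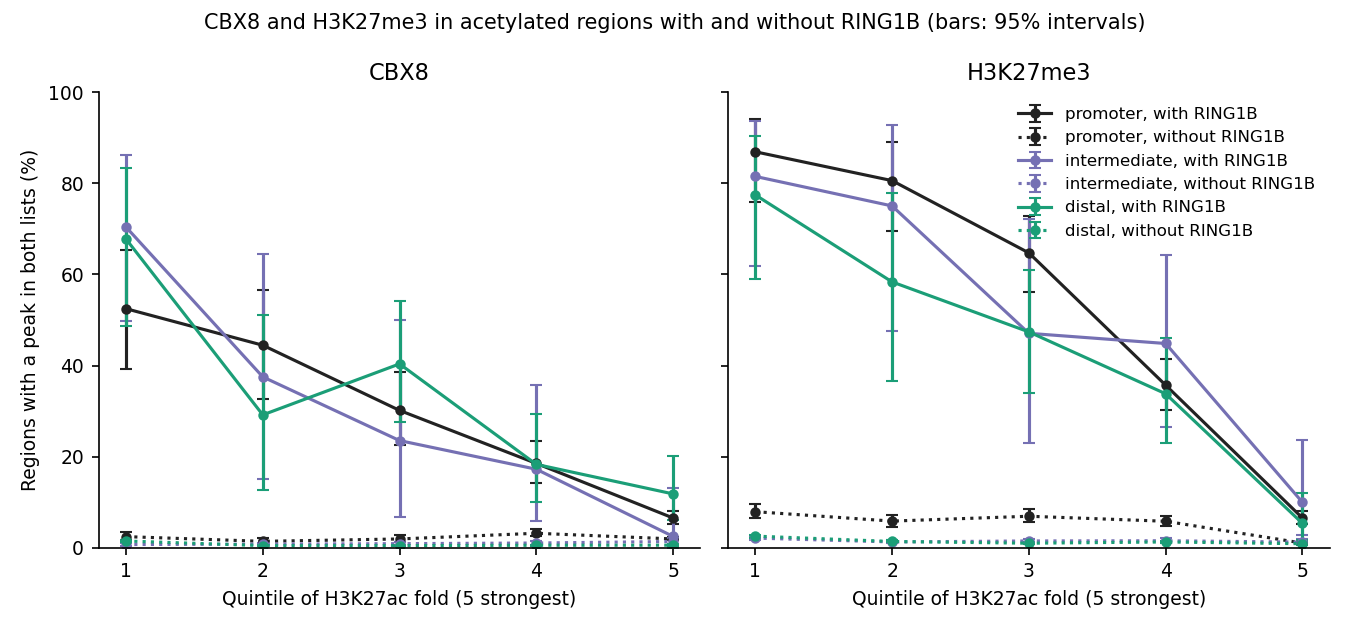
Share of acetylated regions with a CBX8 peak (left) or an H3K27me3 region (right) in both lists (percent), by quintile of H3K27ac fold, with exact 95% intervals. Solid lines are regions with RING1B and dotted lines regions without; at promoters with RING1B, CBX8 falls from 52.5% to 6.55% and H3K27me3 from 86.9% to 6.55%, and the dotted lines stay under 10%.

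Most acetylated promoters with RING1B lacked CBX8. Among the 1895, 1049 had no CBX8 peak in either list, 599 had it in 1 list and 247 in both. The shorter line 2 list marked 17.1% of the 1895 and the line 3 list 40.6%, so these classes depend on list length. H3K27ac fold had a median of 10.7 in replicate 1 and 10.6 in replicate 2 where CBX8 was missing, against 4.75 and 5.14 where both lists had it. H3K27me3 was present in both lists in 7.24% and 61.1% of these sets. RING1B was weaker in the first set, with medians of 5.25 against 6.01 in replicate 1 and 6.82 against 9.93 in replicate 2. Of the 1049 regions 48 reached a weaker-list fold of 10, and of the 247 regions 43 did. Some bases were listed in all 8 libraries; 96 promoter, 24 intermediate and 45 distal regions with RING1B held such bases, or 5.07%, 18.6% and 16.3%. Without them CBX8 at promoters with RING1B was 25.6% of 39 regions in the weakest and 5.77% of 1318 in the strongest quintile, and H3K27me3 79.5% and 5.77%. At distal regions CBX8 was then 37.5% of only 16 regions and 10.9% of 92, and H3K27me3 56.2% and 4.35%. Bases listed in all 8 libraries carry both marks, so leaving them out lowers these shares by construction. Whether those bases reflect signal shared by every library for another reason was not tested.

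In the 300-base windows, 58 acetylated windows of 54 genes had RING1B of 10 or more in both lists and no CBX8 peak in either. They included E2f6 (RING1B 12.6 and 29.5), the gene of a DNA-binding subunit of variant PRC1, and Mga (10.04 and 32.2), the gene of another. Genes of chromatin silencing, Tasor (22.9 and 39.1) and Morc3 (15.4 and 35.2), were there too, as was Igf2r (18.9 and 19.9), an imprinted receptor gene. These genes were named after their values were seen.

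Short motifs were counted on both strands of the windows, with the motifs also chosen after values were seen. CACGTG, an E-box read by MAX dimers, occurred in 7.91% of all 21020 windows, in 9.58% of acetylated windows without RING1B and in 19.0% of those with RING1B. In the 58 strong windows without CBX8 it occurred in 15 (25.9%, interval 15.3 to 39.0). The 15 windows belonged to 14 genes. Some of the 58 windows overlap each other, which the interval does not allow for. The difference was also present within the 2 quintiles richest in CG, where 11.2% of windows without and 19.5% with RING1B held it. GCGGGA, part of the site of E2F factors, was in 26.0% of all windows, 36.5% of acetylated windows without and 49.5% with RING1B, and in 51.8% and 58.4% within those CG-rich quintiles. CCAAT, which holds no CG, was in 38.5% of all windows, 38.7% of acetylated windows without and 30.5% with RING1B, and in 39.7% of the 58 strong windows. Within the CG-rich quintiles it was in 32.2% without and 26.2% with RING1B, and in 35.1% of the 37 strong windows there. A match describes letters only. Among the printed promoters, Ube2q1 carries both CACGTG and GCGGGA, and Spop, Hdac2 and Foxl2 carry GCGGGA.

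Away from promoters the strongest RING1B lay in weakly acetylated Polycomb regions of developmental genes. Of the intermediate regions, the one of Nkx1-1 (chr5:33430483-33431416), a homeobox gene, had RING1B 40.5 and 46.1 with H3K27ac 2.63 and 2.59. Shox2, another homeobox gene, had 26.5 and 45.9 with H3K27ac 3.22 and 3.99, and Prdm8, a transcriptional regulator of neurons, 18.9 and 33.0 with 2.73 and 3.33. Raet1a, a ligand gene of natural killer cell receptors, had 33.0 and 60.8. All 4 carried CBX8 and H3K27me3 in both lists. The Raet1a region was among those that held bases listed in all 8 libraries, which carry both marks by construction.

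Distal regions had lower RING1B, beside weak or strong H3K27ac. Another Prdm8 region, intergenic and upstream (chr5:98167155-98169080), had RING1B 18.6 and 23.2 with H3K27ac 3.76 and 7.21. Regions assigned to Fbxw4 (14.7 and 27.1), Cbx8 (11.8 and 21.7) and Pax2 (10.1 and 13.3), an eye and ear developmental regulator, also carried CBX8 and H3K27me3. Hlf (13.8 and 13.2) and Msx3 (11.4 and 13.8) had H3K27me3 without CBX8. Dlgap1 (13.5 and 11.4) and Wdr76 (11.0 and 15.0) had H3K27ac of 14.2 and 16.0 at Dlgap1 and 9.37 and 8.996 at Wdr76, and no H3K27me3. The assigned gene is the nearest annotated start and was not tested as a target.

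The strongest distal H3K27ac with RING1B lay at Meis1 (chr11:18869610-18872613, H3K27ac 22.6 and 21.6, RING1B 13.0 and 4.01), followed by Fat1, Phtf2, Zfp239 and Tcf12 with H3K27ac of at least 15.3 and RING1B from 4.30 to 7.95. The corresponding intermediate regions were Spag6, Sp8, Gclc, the glutathione synthesis gene, and BC022687, with weaker-list H3K27ac of 18.9, 16.8, 17.0 and 14.9. Strong H3K27ac without any RING1B peak was found at distal regions of Sorbs2, Slit2, Arid1b and Tmem29, with H3K27ac of at least 18.6, and at intermediate regions of LOC106557447, Foxa1 and Zfp503, with at least 19.4.

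Gene lists described which acetylated promoters held RING1B. Counted by gene, 1873 of 12546 genes with an acetylated promoter region had RING1B (14.9%); the replicate 1 list alone gave 16.8% and the replicate 2 list 63.2%. Among Wnt pathway genes 15 of 27 had RING1B (55.6%). The receptors Fzd5 (6.91 and 11.5), Fzd4 (7.02 and 6.77) and Fzd8 (6.65 and 6.67) and the ligand Wnt5b (6.94 and 9.49) had the highest weaker-list RING1B. H3K27ac was 10.1 and 11.8 at Fzd5 and 3.21 and 2.72 at Wnt5b. Fzd1, Fzd2 and Fzd7 were also among the 15, as was the feedback inhibitor Axin2 (6.53 and 16.6), which had CBX8 and H3K27me3.

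The Notch pathway had RING1B at 9 of 17 acetylated promoters (52.9%). After Hey1 came the ligand gene Jag2 (9.35 and 13.1), the repressor Hey2 (9.61 and 6.93) and the receptor Notch1 (6.18 and 7.23). The DNA-binding mediator Rbpj had RING1B 4.74 and 6.01 in strong H3K27ac of 21.0 and 21.1. Of the 9, only Hey1 had CBX8 in both lists. Basal cell and progenitor genes had RING1B at 10 of 25 (40.0%): Cdh1, the E-cadherin gene (6.97 and 9.02), Notch1, Hes6 (6.30 and 6.09), a bHLH gene of neural progenitors, and Nes (5.76 and 12.0), the nestin gene, led by weaker-list fold. Sox2 had RING1B 4.74 and 6.40 with H3K27ac 23.6 and 23.9. Klf5 and Cd44 had H3K27ac of at least 12.4 and no RING1B peak.

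Polycomb genes themselves were among the members. Of 25 acetylated promoters of PRC1 genes 12 had RING1B (48.0%), and of 12 PRC2 genes 5 (41.7%). Bmi1, a core ring-finger subunit, had RING1B 16.4 and 25.9, H3K27ac 14.1 and 14.8, and CBX8 23.7 and 23.2. A second promoter region of Mga (chr2:119872459-119873217), with weak H3K27ac of 2.82 and 5.99, had RING1B 19.5 and 12.8. Kdm2b had RING1B 7.49 and 11.0. Ring1, the RING1A gene, had 4.74 and 8.003, and Rybp 5.96 and 12.0. Ezh2, the PRC2 methyltransferase gene, had 3.15 and 7.23 with H3K27ac 17.4 and 17.8, while Eed (H3K27ac 19.4 and 21.1) and Phc3 (14.6 and 13.2) had no RING1B peak.

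BMP and TGF-beta genes had RING1B at 8 of 29 (27.6%), led by Bmp7 (10.2 and 13.4), the antagonist Nog (8.23 and 11.5) and the receptor gene Acvr2b (7.51 and 12.0). FGF and EGF genes had it at 6 of 23 (26.1%), all 6 without CBX8 or H3K27me3 in both lists; Dusp4, a MAP kinase phosphatase gene, had 6.58 and 7.14, and Spry1, a feedback inhibitor, 5.19 and 6.05 with H3K27ac 19.5 and 21.2. By replicate 2 peaks alone the shares were 93.1% of BMP and TGF-beta and 91.3% of FGF and EGF genes. Immediate early genes had RING1B at 8 of 23 (34.8%), among them Atf3 (12.6 and 8.60), Jund (6.04 and 9.95) and Fos (5.29 and 5.16). Placode and brain patterning homeobox genes had it at 7 of 17 (41.2%), with Lhx9 (22.0 and 34.7), Pbx3 (15.6 and 16.2) and Msx1 (12.8 and 16.9) highest. This Lhx9 region held bases listed in all 8 libraries.

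Olfactory neuron genes had RING1B at 5 of 10 acetylated promoters, with a weaker-list H3K27ac median of 3.87 over the 10: Kirrel3, an axon sorting adhesion gene, had RING1B 9.64 and 8.95 and H3K27ac 3.30 and 2.80, and Adcy3, the olfactory adenylyl cyclase gene, 5.63 and 4.002 and H3K27ac 6.75 and 6.43. Olfactory lineage factors had it at 3 of 10 (30.0%): Nfib (6.22 and 12.7), Zfp423 (5.31 and 12.4) and Sox11 (5.18 and 12.3). Axon guidance genes had 8 of 30 (26.7%), led by Epha5 (8.19 and 9.69). Epithelial and mesenchymal genes had 7 of 20 (35.0%), Zeb2 (32.3 and 10.5), Vim (7.501 and 7.40) and Twist1 (14.8 and 7.22) among them. Hoxc6, a Hox gene, had RING1B 19.5 and 18.7 with CBX8 and H3K27me3.

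Genes of basic cell functions lay near or below the share of all genes by peaks of both lists. Cytosolic ribosomal protein genes had RING1B at 3 of 33 acetylated promoters (9.09%), namely Rpl38 (5.58 and 6.92), Rps7 (4.51 and 5.15) and Rpl7 (4.29 and 4.73). Housekeeping metabolism genes had 2 of 22 (9.09%), Ppia (5.86 and 7.21) and Ldha (5.96 and 5.21), and cell cycle genes 3 of 27 (11.1%), Mcm3 (6.10 and 7.72), Ccne2 (5.12 and 7.60) and Cdk6 (4.82 and 9.78). Cell cycle inhibitors had 2 of 12 (16.7%), Gadd45g (4.69 and 5.86) and Cdkn1a (4.62 and 5.25). Genes of H3K27 acetylation and demethylation had 2 of 12 (16.7%), Hdac2 among them. None of these promoters with RING1B had CBX8 or H3K27me3 in both lists. Their place against all genes differed between the RING1B lists: by replicate 2 peaks alone RING1B was present at 72.7% of ribosomal protein, 77.3% of housekeeping and 81.5% of cell cycle genes, above the 63.2% of all genes, and at 27 of 27 Wnt and 94.1% of Notch genes. H3K27ac was of like strength in these lists, with weaker-list medians of 10.3 for ribosomal protein and 9.70 for cell cycle genes against 9.24 for Wnt and 9.70 for Notch genes.

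Seen from RING1B, 2730 of the 6265 shared peaks (43.6%, interval 42.3 to 44.8) lay in an H3K27ac region. The share was 53.9% of 4085 promoter peaks, 16.4% of 1187 intermediate and 33.7% of 993 distal peaks. Peaks inside H3K27ac were weaker, with median folds of 5.22 and 6.99 against 7.13 and 9.87 outside, and narrower, with a median of 253.5 bases against 372. CBX8 of both lists overlapped 12.6% of the peaks inside and 68.0% of those outside. Promoter peak summits lay within 500 bases of the start in 73.5% of cases inside H3K27ac and in 38.1% outside.

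Most differences between the RING1B lists lay in regions without a shared peak: 10061 acetylated regions held RING1B of replicate 2 alone, 216 of replicate 1 alone and 166 of both lists with no base in common. Among regions with a shared peak some differed in strength. In 1974 of the 2300 regions the folds were within 2 times of each other, in 292 replicate 2 was at least 2 times higher and in 34 replicate 1 was. In those 34, H3K27me3 was present in 82.4% in line 1 and in 32.4% in line 2, and CBX8 in 17.6% in line 2 and in 79.4% in line 3. The 292 differed less between lines, with H3K27me3 in 33.2% in line 1 and 42.1% in line 2, and CBX8 in 32.2% in line 2 and 46.9% in line 3. Regions within 2 times had H3K27me3 in 34.2% and 30.7%, and CBX8 in 17.2% and 41.1%. H3K27ac was higher in line 2 than in line 3 in 73.5% of the 34 regions, against 44.6% of the 1974 and 34.6% of the 292. The 2 times limit was set after values were seen.

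Named examples with large differences were picked after values were seen. Irx1, a homeobox gene, had RING1B 35.3 in line 1 and 5.60 in line 2, H3K27ac 16.2 in line 2 and 7.99 in line 3, and CBX8 53.0 in line 3 with no peak in line 2. Pax7, a paired-box gene, had RING1B 26.9 and 5.42, H3K27ac 18.5 and 10.9, and CBX8 48.8 in line 3 alone. Both had H3K27me3 in line 1 and none in line 2. Sp8, a zinc finger gene of the olfactory placode and forebrain, had RING1B 28.7 and 4.81 at the promoter and 27.1 and 5.12 in an intermediate region, with H3K27ac 24.8 and 23.6 at the promoter. In the other direction, Mecom had RING1B 5.15 in line 1 and 55.4 in line 2, with CBX8 59.2 in line 2 and 9.93 in line 3, and Mafa 7.18 and 65.0, with CBX8 67.7 and 9.20. RING1B of line 1 and H3K27ac of lines 2 and 3 were measured in different cultures, so whether both occurred in the same cells cannot be told at these regions.

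RING1B was also counted in regions acetylated in 1 list only. Promoter peaks listed in line 3 alone held RING1B of line 1 in 9.76% and of line 2 in 16.0% of 2408 cases. Those listed in line 2 alone held it in 2.42% and 8.45% of 2971. Away from promoters RING1B of line 2 had the opposite order, with 2.12% of intermediate and 1.49% of distal peaks listed in line 3 alone and 3.14% and 2.80% of those in line 2 alone. RING1B of line 1 was present in 0.519% and 0.247% of the former and in 0.257% and 0.121% of the latter. Both kinds of promoter peak were weak and narrow, with median H3K27ac folds of 2.74 and 2.53 and widths of 458 and 504 bases.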

How the data were processed

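Per the labels, chromatin immunoprecipitation was sequenced from formaldehyde-fixed cultures, with 2 libraries for each of 4 antibodies and 5 inputs; the inputs were not used here. Per the submitters' processing notes, reads were handled with BWA 0.7.12 (build mm10), MACS2 2.1.1.20160309, Trim Galore 0.4.3 and bcl2fastq 2.17. The authors deposited 1 annotated peak list per library, with the ratio of signal over background (fold enrichment) and the −log10 q of each peak, the distance to the nearest start and its gene. The H3K27ac and H3K27me3 lists reach down to −log10 q near 1 and the RING1B and CBX8 lists to near 2, so the thresholds differed. Which input served each call, and the reads behind each list, are not given in these sources. Peak names of both H3K27ac lists hold the word combined, which no source explains.

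From the lists, peaks on chromosomes 1 to 19 and X were kept and overlaps of at least 1 base counted, with Python 3.11.15, pandas 2.3.3, numpy 2.4.6 and scipy 1.17.1; figures used matplotlib 3.10.9. The overlap and counting steps were tested on simulated data. A region's RING1B fold is the highest of its peaks in each list, and the weaker list is the lower of both. Quintiles were formed over all regions by the replicate 1 H3K27ac fold, in the windows by the weaker list. Of 32619 RefSeq promoter windows on these chromosomes, the protein-coding ones were used. Genes were named by rank: at promoters the 10 with the highest weaker-list RING1B, the 8 with the highest H3K27ac beside RING1B and the 6 with the highest H3K27ac and no RING1B, with 5, 4 and 3 at intermediate and 8, 5 and 4 at distal regions, and up to 4 with and 2 without RING1B per gene list. Predicted, Rik and microRNA genes were skipped. A few genes the rule selects are not reported here. Of the 24 promoter genes 18 matched a protein-coding window by symbol. Members, gene lists, motifs and examples were chosen with earlier results of these data known. Alternatives for overlap, thresholds, widths, distance limits and libraries are given in the closing section.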

Additional observations from a re-analysis of the deposited data

How the results depend on the processing

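Alternatives gave 125 values over 25 results: 76 moved by less than the SD between the values of single lists (n = 2), 46 moved further and 3 reversed. That SD exceeds the value itself for several shares (27.5 for the promoter share of 12.0%, 4.16 for the distal share of 0.616%), so the 76 are no measure of stability. No paired analysis was possible because no RING1B library shares both line and passage with an H3K27ac library, equal replicate numbers stand for different lines, and no test was made. The strongest-to-weakest ratio (3.11 at promoter, 4.34 at intermediate and 6.23 at distal regions) changed with the way width was taken into account. Width and H3K27ac fold rose together, and which of them the ratio follows was not tested. Counted as peaks per megabase the ratio was 0.687, 0.744 and 1.33, and in 300-base promoter windows 0.767. Stricter peaks gave 2.11 and 4.04 at promoter and intermediate regions. Windows of 1000 bases on either side of the midpoint gave 1.83 at promoter, 3.87 at intermediate and 4.52 at distal regions. Without regions listed in all 8 libraries it was 4.74, 8.98 and 11.9, where fewer weak regions hold RING1B. Quintiles within each class gave 2.20 at intermediate and 4.33 at distal regions, promoter regions that cover a start 2.11, and H3K27ac replicate 2 regions 4.05 at intermediate regions. Stricter peaks raised the distal RING1B median to 5.58, since weak peaks are left out. The cause of the other shifts was not tested. The windows, the start-covering regions and the single-list gene and CpG values were chosen after seeing the data.

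Leaving out each replicate gave shares with RING1B of 10.5% to 52.4% at promoter, 0.548% to 7.40% at intermediate and 0.401% to 6.74% at distal regions, the highest without RING1B replicate 1. The strongest-to-weakest ratio ranged over 2.75 to 4.29, 3.24 to 5.59 and 4.01 to 6.58. Median RING1B fold ranged over 5.12 to 5.29, 4.37 to 5.60 and 4.39 to 5.27. RING1B peaks in H3K27ac were 42.7% to 53.7%. CBX8 in single lists was 17.1% to 40.6%, 28.7% to 53.5% and 28.6% to 49.6% with RING1B, and 3.86% to 19.0%, 1.95% to 13.0% and 1.44% to 10.9% without. H3K27me3 was 28.4% to 32.2%, 55.8% in each list and 43.1% to 47.1% with RING1B, and 7.61% to 10.3%, 5.11% to 5.59% and 4.93% to 5.19% without. The CpG difference was 6 to 8, the GC difference 4.33 to 6.67 percentage points, and the share of genes 16.8% to 63.2%.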
